A study of Mus musculus with 28 samples.

Results

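Wide H3K27me3 domains are stretches of at least 5000 bp that were enriched for trimethylated lysine 27 of histone H3 in control mesodermal cultures. They were chosen by their extent in the control H3K27me3 lists. Overlapping regions of the 3 control replicates, by 1 bp or more, were joined, and 6473 joined regions were listed in 2 or more replicates. Of these control regions, 511 were at least 5000 bp wide, which is 7.89% of the regions. The domains spanned 4881 kb of the 12642 kb in all control regions, or 38.6% of the bases. The remaining 5962 are called narrower regions here.

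H3K27me3 is deposited by Polycomb repressive complex 2 (PRC2), of which Suz12 is a core subunit required for activity. In embryonic stem cells and early embryos the mark covers many genes of developmental transcription factors and signals that are not transcribed in those cells. In mammals PRC2 is found mostly at CpG-rich DNA, and the *Hox* clusters are its best known broad targets.

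The study asked what *Brg1*, the ATPase of the BAF chromatin remodelling complex, does as embryonic stem cells form mesoderm. Its ChIP-seq data comprise 28 samples at day 4, of which 11 are inputs. Mouse *Brg1* f/f;*Actin-CreER* cells, in which 4-hydroxytamoxifen (4-OHT) lets the Actin-driven Cre delete *Brg1*, spent 2 days as embryoid bodies in serum-free medium and 40 h as new aggregates with VEGF, Activin A and BMP4. Control cultures received tetrahydrofuran (THF) from day 2 and 4-OHT cultures received 200 nM 4-OHT in THF, so that both conditions share the floxed alleles, the Cre and the solvent. H3K27me3 was measured in 3 control and 3 4-OHT replicates, and Suz12 and H3K27ac, a mark of active promoters and enhancers, in 2 and 2. Brg1 itself was measured through a FLAG tag, in 3 replicates by the labels. The labels give these the *Brg1* f/f;*Actin-CreER* genotype, whereas the paper gives Brg1-FLAG cells in duplicate. How completely *Brg1* was deleted in each culture is not measured by these lists.

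Each replicate is given as a list of enriched regions placed on the mm9 mouse genome, with no score or read count. Read depth is therefore unknown, and the number of bases that a list covers is the measurement used throughout. Covered length depends on where a region passes the calling threshold, so it is not a level of the mark. In cultures of many cells, fewer cells with the mark and less of the mark per cell cannot be told apart.

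Replicate 1 stood apart from the other H3K27me3 libraries in both conditions. The control lists held 16959, 8798 and 8977 regions in replicates 1, 2 and 3, and the widest single region was 9300, 94725 and 66425 bp. The 4-OHT lists held 10394, 7872 and 6787 regions, the widest being 7550, 43450 and 33350 bp. Replicate 1 thus listed many short pieces where replicates 2 and 3 listed long runs, with a median of 4 control pieces in a wide domain against 1 and 2. FLAG replicate 3 also stood apart, with 192 regions where replicates 1 and 2 had 8021 and 8257. The main results that rest on these libraries are given with and without them. Without H3K27me3 control replicate 1, 455 domains met the rule.

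The mesodermal label was examined with marker genes. H3K27ac lay within 500 bp of a transcription start site (TSS) in both control replicates for 15 of 19 mesoderm and primitive streak markers, among them *T*, *Eomes*, *Mixl1* and *Mesp1*. The same held for 10 of 14 pluripotency markers, 2 of 13 neural ectoderm markers, 4 of 11 endoderm markers, 2 of 10 blood and endothelium markers and 3 of 10 cardiac markers. Over all 22232 protein-coding genes the share was 44.8%. Active chromatin was thus listed at mesoderm and at pluripotency genes in the same cultures.

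The domains ranged from 5000 to 94850 bp, with a median of 7300 bp and an interquartile range of 5875 to 10688 bp. Each of the 511 was listed in all 3 control replicates, against 63.0% of the narrower regions. Of the domains, 270 were under 7500 bp, 93 were from 7500 to under 10000 bp, 91 from 10000 to under 15000 bp, and 57 were wider still. Chromosome 2 held the most, with 57, and chromosome X held 1. At the edge of the rule, the narrowest domains were at *Slc26a4* and at an intergenic site on chromosome 11, both 5000 bp, and at *Grem1*, which shared a width of 5025 bp with other domains. The widest regions that missed the rule were at *Smarcd3*, *Grm7* and *Nr3c2*, each 4975 bp. Suz12 covered 1325 and 1225 bp of the *Smarcd3* region in the control replicates, and 2025 and 2000 bp of the *Grem1* domain.

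Developmental transcription factors filled the widest domains. The widest spanned the *Hoxa* cluster from *Hoxa2* to *Hoxa11* at chr6:52110476-52205325, with 10 annotated protein-coding genes. *Hoxc9* to *Hoxc12* followed at chr15:102751576-102820675 with 69100 bp, then *Hoxd8* to *Hoxd13* with *Evx2* at chr2:74486051-74549450 with 63400 bp, and *Hoxb3* to *Hoxb6* at chr11:96150751-96202475 with 51725 bp. These genes give cells their position along the body axis. Others among the 10 widest were at *Hand2*, a regulator of heart and limb (45000 bp), *Hoxb13* (40900 bp), *Pax3*, a regulator of neural crest and muscle precursors (36175 bp), *Hoxd3* and *Hoxd4* (36075 bp) and *Nr2f1*, an orphan nuclear receptor (26875 bp).

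A protein-coding TSS lay in 318 of the 511 domains, or 62.2% (exact binomial 95% interval 57.9% to 66.5%, which covers counting error only). Over all control regions the share was 18.9%, and in the narrower ones it was 15.1%. In domains of 15000 bp or more it was 91.2%. A wider region has more room for a TSS, and the median width was 7300 bp in wide domains against 950 bp in narrower regions. These shares are therefore not a density of TSSs. The domains held TSSs of 353 genes, 1.59% of all protein-coding genes. One gene was found in 292 domains, 2 genes in 20, and 3 or more in 6, of which 5 were *Hox* domains. For 139 genes the whole gene body lay inside.

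Coverage of the homeobox and paired-box families ranged widely. Of 39 *Hox* genes, 34 had a TSS in a wide domain. The same was found for 10 of 12 *Lhx*, *Isl* and *Lmx1* genes, 7 of 9 *Pax* genes, 3 of 4 *Evx* and *Gsx* genes and 8 of 14 *Nkx* genes. It held for fewer members of other homeobox families, with 3 of 6 *Irx* genes, 2 of 4 *En* and *Emx* genes, 2 of 6 *Dlx* genes, 1 of 5 *Pitx* and *Otx* genes, 1 of 3 *Cdx* genes and 4 of 14 *Pou* genes. Other transcription factors were covered in part, with 9 of 21 neural bHLH genes, 2 of 5 *Zic* genes, 6 of 18 *Sox* genes, 2 of 6 *Gata* genes, 5 of 17 T-box genes and 10 of 43 *Fox* genes. A domain that stopped short of a TSS was not counted. Genes outside these counts can therefore lie next to a wide domain, as *Irx1*, *Irx3* and *Irx5* did.

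Among signalling genes, wide domains held a TSS of 4 of 10 hedgehog pathway genes, namely the ligands *Shh*, *Ihh* and *Dhh* and the receptor *Ptch1*. They held 5 of 19 *Wnt* ligand genes, *Wnt1*, *Wnt3a*, *Wnt7b*, *Wnt10a* and *Wnt10b*, and 1 of 23 *Bmp* and *Gdf* ligand genes, *Gdf7*. None of 22 *Fgf* ligand genes had a TSS in a wide domain, while 10 had one in a narrower region. No TSS in a wide domain was found for 80 ribosomal protein genes, 11 PRC2 subunit genes or 21 BAF subunit genes. All lists together took up 121 of the 353 genes, or 34.3%, and 232 genes were in none of them.

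Among the cell type markers, neural ectoderm genes had a TSS in a wide domain most often, in 6 of 13, among them *Pax6*, *Zic1*, *Neurog1* and *Six3*. Of the endoderm markers 3 of 11 had one, among them *Sox17* and *Foxa1*, the blood and endothelium markers *Tal1*, *Gata2* and *Sox7* were 3 of 10, and the cardiac markers *Tbx5*, *Hand2* and *Nkx2-5* were 3 of 10. Of the 19 mesoderm and primitive streak markers, *Cdx2*, *Foxf1a* and *Lhx1* had one, and of the 14 pluripotency markers *Utf1* and *Esrrb* did.

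Of the 193 domains without a protein-coding TSS, 95 overlapped a gene body and 98 did not. Their median width was 6875 bp, against 7763 bp with a TSS. The nearest TSS lay within 2500 bp of 98 of them, and for 18 of these it carried H3K27ac in both control replicates. The domain of *Irx1*, a homeodomain factor, belonged here. It lay at chr13:72094176-72101075 and ended 96 bp from the TSS. Domains also stopped 202 bp from *Hoxa13*, 56 bp from *Irx5* and 1073 bp from *Irx3*. Neighbouring wide domains lay within 10000 bp of each other in 98 cases.

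Suz12 overlapped nearly all of the domains. In both control replicates together it was listed in 496 of 511, or 97.1% (exact binomial 95% interval 95.2% to 98.3%), against 26.4% of all control regions and 20.4% of the narrower ones. Replicate 1 met 501 domains and replicate 2 met 498. As a share of bases, Suz12 covered 50.2% and 55.3% of the domains in control replicates 1 and 2, and 14.1% and 15.5% of the narrower regions. Of all bases in the Suz12 control lists, 66.4% and 66.3% fell in these domains.

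Single domains varied widely in how much of them Suz12 covered. The mean of the 2 control replicates had a median of 47.0%, an interquartile range of 28.6% to 65.1% and a range of 0% to 100%. The median was 35.9% in domains under 7500 bp, 52.2% up to 10000 bp, 60.8% up to 15000 bp and 65.0% in wider ones. In the *Hoxa* domain Suz12 covered 75650 and 82325 bp of 94850 bp. In the *Hand2* domain it covered 21900 and 27925 bp of 45000 bp, and in the *Nr2f1* domain 10775 and 13975 bp of 26875 bp. Of the 353 genes, 308, or 87.3%, had a TSS inside Suz12 of both control replicates. Domains with and without a TSS had similar medians, 47.5% and 44.7%.

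No Suz12 region of either control replicate met 8 domains. They lay 642 to 3013 bp from the TSSs of *Lsm14b*, *Gm10528*, *Hes7* and *Slc25a4*, 123402 bp from that of *Tspan2*, in *Faah*, and at the TSSs of *Col13a1* and *Ntsr2*. None was wider than 7875 bp, the width of the one near *Slc25a4* at chr8:47299651-47307525. In 3 of them Suz12 was listed in the 4-OHT replicates, with 950 and 1100 bp at *Col13a1*, 400 and 500 bp at *Ntsr2* and 100 and 225 bp in *Faah*. In the other 5 no Suz12 list held a region.

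The stretches that Suz12 covered were the CpG-rich part of the domains. Stretches with Suz12 in both control replicates summed to 2361 kb with 45.6 CpG per kb, and those with Suz12 in neither to 2093 kb with 12.4 CpG per kb. The genome had 8.34 CpG per kb. In 466 domains both kinds of stretch reached 500 bp, and in 465 of them CpG density was higher where Suz12 lay, with medians of 51.7 and 11.7 per kb. Whole domains had a median of 29.9 CpG per kb and narrower regions 17.9.

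H3K27me3 replicate 1 differed from the others in these stretches. Control replicates 2 and 3 covered 99.7% and 98.0% of the Suz12 stretches, whereas control replicate 1 covered 45.0%. Of the stretches without Suz12, replicates 1, 2 and 3 covered 73.1%, 90.7% and 86.3%. What part base composition has in these gaps was not tested.

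Windows of 150 bp from 2 of the widest domains show both kinds of DNA. They were taken outside annotated exons, from the plus strand of mm9, as the window with the most CpG under Suz12 of both control replicates and the leftmost window with the fewest CpG under Suz12 of neither. Capitals mark CpG dinucleotides. At *Pax3* the first lay at chr1:78213801-78213950, outside annotated protein-coding genes, with 27 CpG, and the second at chr1:78182526-78182675, in an intron, with 0. At *Nr2f1* they lay at chr13:78318776-78318925, with 15, and chr13:78313801-78313950, with 0, both outside protein-coding genes.
Pax3 with Suz12: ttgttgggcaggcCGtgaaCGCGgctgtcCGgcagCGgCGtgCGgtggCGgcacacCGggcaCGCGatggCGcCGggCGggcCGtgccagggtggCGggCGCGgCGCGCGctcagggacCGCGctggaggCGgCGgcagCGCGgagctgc
Pax3 without Suz12: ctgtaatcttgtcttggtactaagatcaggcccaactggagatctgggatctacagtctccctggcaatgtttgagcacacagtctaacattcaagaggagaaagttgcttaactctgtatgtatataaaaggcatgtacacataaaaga
Nr2f1 with Suz12: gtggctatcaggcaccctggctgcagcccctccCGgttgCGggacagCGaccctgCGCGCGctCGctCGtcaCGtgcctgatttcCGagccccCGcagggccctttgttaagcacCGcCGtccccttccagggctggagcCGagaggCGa
Nr2f1 without Suz12: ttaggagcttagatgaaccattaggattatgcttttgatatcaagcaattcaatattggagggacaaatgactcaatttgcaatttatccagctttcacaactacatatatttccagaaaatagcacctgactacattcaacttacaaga
H3K27me3 control replicates 2 and 3 and 4-OHT replicates 2 and 3 covered all 150 bp of the CpG-rich windows of *Pax3* and *Nr2f1*, and replicate 1 of both conditions covered 0 bp. At the CpG-poor *Nr2f1* window all 6 lists covered 150 bp. The CpG-poor *Pax3* window was covered over 75 bp in control replicate 1 and 4-OHT replicate 3, and over 150 bp in the other lists.

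The *Hox* domains also held microRNA genes that are known to target *Hox* transcripts. Of 17 annotated microRNA genes in wide domains, 7 had a mature sequence in RefSeq (GRCm38.p6 table). *Mir10a* lay in the *Hoxb3* to *Hoxb6* domain, *Mir10b* in the *Hoxd3* and *Hoxd4* domain, *Mir196b* in the *Hoxa* domain and *Mir196a-2* in the *Hoxc9* to *Hoxc12* domain. Their 5p arms form 2 seed groups, shown with bases 2 to 8 in capitals.
mmu-miR-10a-5p: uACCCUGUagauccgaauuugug
mmu-miR-10b-5p: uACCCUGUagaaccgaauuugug
mmu-miR-196a-5p: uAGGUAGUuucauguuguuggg
mmu-miR-196b-5p: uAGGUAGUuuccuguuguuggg

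The 4-OHT H3K27me3 lists met 507, 511 and 510 of the domains in replicates 1, 2 and 3. The control lists, which chose the domains, covered 2888, 4674 and 4532 kb of them in replicates 1, 2 and 3. The 4-OHT lists covered 2116, 4223 and 4014 kb, which is 43.4%, 86.5% and 82.2% of the domain bases. Each 4-OHT replicate was below the control replicate of its number, but the conditions overlapped, as replicate 1 was low in both. The mean was 4031 ± 993 kb in control and 3451 ± 1161 kb in 4-OHT cultures (SD, n = 3 each), a ratio of 0.856 that is given without a test. By number the ratios were 0.733, 0.903 and 0.886. Without replicate 1 of both conditions the ratio was 0.904, and without 4-OHT replicate 1 alone it was 1.02.

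To compare the conditions on domains chosen from both, all 6 lists were merged and regions of at least 5000 bp in 2 or more lists were taken. Of these 533 domains, 510 overlapped one of the 511. Control replicates covered 2971, 4827 and 4682 kb of them and 4-OHT replicates 2179, 4379 and 4158 kb. The ratio of means was 0.859, and the two-sided exact permutation test over samples gave p = 0.5, with n = 3 each and 0.1 as the smallest p it allows. With replicate number as a block the mean ratio was 0.843 and the exact sign-flip test gave p = 0.25, the smallest that 3 pairs allow. Without 4-OHT replicate 1 the ratio was 1.03, and without replicate 1 of both conditions it was 0.907, in 477 domains.

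Counted domain by domain, 45 of the 511 were lower in all 3 4-OHT replicates than in all 3 control replicates, and 0 were higher in all 3. Over all control regions these shares were 14.9% and 0.0309%. Replicate 1 was low in both conditions. Leaving replicate 1 out of the comparison of the same 511 domains, 381, or 74.6%, were lower in both remaining 4-OHT replicates than in both control replicates, against 47.9% of all control regions. When domains were also chosen without it, 337 of 455 were lower. Within same-numbered pairs, 439 of the 511 were lower in all 3, against 47.4% of all control regions. The control lists chose the domains, and nothing is read from these shares.

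The ratios that follow are a description, since the control lists both chose the regions and set their width, and nothing is read from differences between width classes. The ratio of mean 4-OHT to mean control length had a median of 0.862 and an interquartile range of 0.797 to 0.906 in wide domains, and a median of 0.500 and an interquartile range of 0.145 to 0.761 in narrower regions. It was at least 0.9 in 139 wide domains, under 0.5 in 9 and above 1 in 2. In domains of 15000 bp or more its median was 0.899, and in those under 7500 bp 0.849. Without replicate 1 of both conditions the medians were 0.902 in wide domains and 0.465 in narrower regions, and 0.941 and 0.892 in the widest and narrowest of these classes. The ratio was then at least 0.9 in 262 wide domains, under 0.5 in 8 and above 1 in 16. At least 1 4-OHT list lacked 5 wide domains, against 56.1% of all control regions. These were at *Tnfaip2*, *Begain*, *Grm4* and *Kcnj12*, absent from replicate 1, and in *Nfix*, absent from replicate 3. No wide domain was absent from all 3 4-OHT lists, as 1025 narrower regions were.

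Among the broad domains, the *Hoxa* domain was covered over 63250, 94725 and 94525 bp in control and 49975, 92200 and 91250 bp in 4-OHT replicates. The *Hand2* domain was covered over 34825, 44200 and 43725 bp in control and 29925, 43425 and 43125 bp in 4-OHT replicates. In both, replicates 2 and 3 stayed close to full length and replicate 1 was shorter. For the 34 *Hox* genes the median ratio of their domains was 0.917, with a range of 0.768 to 0.940, the lowest at *Hoxc6*. The wider domain was taken where a gene had a TSS in more than 1, and the narrower *Hoxc6* domain had a ratio of 0.915. Without replicate 1 the median was 0.960 and the range 0.843 to 0.969.

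The 5 lowest ratios were found in domains of 5025 to 6225 bp. The lowest, 0.285, lay at chr3:34559801-34566025, 10743 bp from the TSS of *Sox2*, a pluripotency and neural factor. This domain was covered over 3350, 5825 and 4175 bp in control and 150, 3225 and 425 bp in 4-OHT replicates. The next, 0.292, lay at *Utf1*, a gene of undifferentiated stem cells, at chr7:147129376-147135500. It was covered over 4050, 5250 and 2000 bp in control and 625, 2600 and 75 bp in 4-OHT replicates. At both, each 4-OHT replicate was below the control replicate of its number. Near *Sox2* all 4-OHT values were also below all control values, whereas at *Utf1* the conditions overlapped. The *Utf1* domain also held H3K27ac, over 2125 and 1275 bp in control and 2625 and 2825 bp in 4-OHT replicates. The other 3 of the 5 lowest ratios were in *Nfix* (0.316), 79048 bp from *Tbca* (0.398) and 1124 bp from *Gm10528* (0.412). Without replicate 1 the ratios of these 5 were 0.365 near *Sox2*, 0.369 at *Utf1*, 0.328 in *Nfix*, 0.469 for the domain nearest to *Tbca* and 0.356 for that nearest to *Gm10528*. The 5 lowest were then not the same domains, as the one nearest to *Lsm14b* (0.427) took the place of the one nearest to *Tbca*.

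The 5 highest ratios were at *Cbln1* (1.01), *Prrx1* (1.01), *Cdkn2c* (0.997), *Pou4f2* (0.994) and 50281 bp from *Rhbg* (0.991). At *Cdkn2c*, a cell cycle inhibitor, control lists covered 5850, 8050 and 7950 bp and 4-OHT lists 5825, 8025 and 7925 bp. At *Prrx1*, a mesenchymal homeobox factor, they covered 5075, 7175 and 6150 bp and 4600, 6825 and 7075 bp. In these domains the conditions overlapped. Without replicate 1 the ratios of the 5 ran from 0.995 at *Cbln1* to 1.04 at *Prrx1*, and of these only *Prrx1* was still among the 5 highest.

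*Irx1* and *Nkx2-5* are example loci in the study. The *Nkx2-5* domain at chr17:26973126-26989800, which holds the TSS of this cardiac factor, was covered over 8825, 16300 and 16075 bp in control and 6125, 15600 and 15350 bp in 4-OHT replicates, a ratio of 0.90. The *Irx1* domain was covered over 3325, 6900 and 6575 bp in control and 2250, 6375 and 5300 bp in 4-OHT replicates, a ratio of 0.829. Without replicate 1 the ratios were 0.956 at *Nkx2-5* and 0.866 at *Irx1*. At both, each 4-OHT replicate was below the control replicate of its number, and the conditions overlapped.

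The H3K27me3 length kept in 4-OHT cultures is described separately for stretches with and without Suz12. Of the bases that a control replicate covered under Suz12 of both replicates, 74.6%, 97.2% and 95.0% were covered in the 4-OHT replicate of the same number. Outside Suz12 these shares were 67.8%, 79.0% and 76.5%. The share under Suz12 was the higher one in each of the 3 pairs, with means of 88.9% ± 12.5 and 74.5% ± 5.86 (SD, n = 3). The control H3K27me3 lists chose both the domains and the bases counted, so no test is given and nothing is read from this difference.

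The Suz12 share of the domain bases was 50.2% and 55.3% in control and 45.1% and 53.8% in 4-OHT replicates. The means were 52.7% ± 3.66 and 49.5% ± 6.11 (SD, n = 2 each), and the values of the conditions overlapped. Each 4-OHT replicate was below the control replicate of its number, with ratios of 0.90 and 0.972. The difference of 4-OHT minus control was -3.28 percentage points, and the two-sided exact permutation test gave p = 0.667, with 0.33 as the smallest p that 2 against 2 allows. Without 4-OHT replicate 1 the difference was 1.04 points. In narrower regions Suz12 covered 14.1% and 15.5% of bases in control and 14.8% and 20.8% in 4-OHT replicates, a ratio of 1.20, and the ratio for the whole lists was 1.08. Suz12 was listed in 499 and 505 domains in 4-OHT replicates 1 and 2. In 98 domains both 4-OHT replicates had less Suz12 than both control replicates, and in 54 both had more. Over all control regions the shares were 3.11% and 10.2%. Of the narrower regions, 73.0% had no Suz12 in either control replicate and so could not be lower, against 1.57% of the wide domains. The shares are therefore not compared. By replicate number, 216 domains had less Suz12 in both 4-OHT replicates and 91 had more, against 6.69% and 13.3% of all control regions. For the same reason these shares are not compared.

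Of 17 domains at or nearest to *Hox* genes, 8 had less Suz12 in both 4-OHT than in both control replicates, 0 had more and 9 overlapped. Over all 511 wide domains the shares with less and with more were 19.2% and 10.6%. Over all control regions they were 3.11% and 10.2%. The *Hox* counts are not compared with these, as most narrower regions had no Suz12 in control and could not be lower. Control replicates had 9525 and 11550 bp of Suz12 in the wider of the *Hoxc6* domains, at chr15:102829876-102844075, where 4-OHT replicates had 4625 and 6575 bp. Control replicates had 56625 and 60050 bp of Suz12 in the *Hoxc9* to *Hoxc12* domain, where 4-OHT replicates had 46250 and 56575 bp. In both domains each 4-OHT value was below both control values. The other domain with a *Hoxc6* TSS, at chr15:102820976-102829475, had 7800 and 7925 bp in control and 6500 and 7850 bp in 4-OHT replicates, and these overlapped. In the *Hoxa* domain the 4-OHT values, 67250 and 78150 bp, overlapped with those of control.

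H3K27ac was scarce in the domains. Both control replicates listed it in 19 of the 511, or 3.72%, against 1.95% of all control regions, and both 4-OHT replicates in 32, against 3.18%. Wider regions have more room for H3K27ac, so these shares of regions are not compared. As a share of bases, it covered 0.406% and 0.391% of the domains in control replicates, and 1.04% and 0.858% of the narrower regions. In 4-OHT replicates it covered 0.594% and 0.538% of the domains, and 1.51% and 1.11% of the narrower regions. Without H3K27ac control replicate 1 the control count was 30, or 5.87%, and without replicate 2 it was 28, or 5.48%. Its length in the domains was 19.8 and 19.1 kb in control replicates, where 4-OHT replicates had 29.0 and 26.3 kb. Both 4-OHT values were above both control values, with a ratio of means of 1.42. The two-sided exact permutation test gave p = 0.33, the smallest that 2 against 2 allows, so the design cannot reach 0.05. The whole H3K27ac lists covered 28.0 and 30.8 Mb in control and 28.5 and 26.1 Mb in 4-OHT replicates, a ratio of 0.930. In narrower regions the ratio was 1.38.

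The 5 widest domains with H3K27ac in both control replicates were at *Hoxc9* to *Hoxc12*, *Hand2*, *Gata2*, *Nkx2-9* and next to *Irx5*. At *Hand2*, the H3K27ac length was 1625 and 2250 bp in control and 1350 and 2400 bp in 4-OHT cultures. At *Gata2*, a blood regulator, this length was 1075 and 200 bp in control and 1350 and 625 bp in 4-OHT cultures. H3K27ac was found in both 4-OHT and neither control replicate in 7 domains, against 0.402% of all control regions. These 7, named after their values were seen, were at *Tbx2*, *Foxe1* and *Hrk*, in *Zfp503* and *Rnf220*, and outside genes nearest to *Cbx8* and *Ppara*. The longest stretches were at *Foxe1*, with 850 and 350 bp. The reverse was seen in 1 domain, against 0.232% of all control regions. It lay 3678 bp from *Tbx3*, where control replicates had 800 and 1450 bp and 4-OHT replicates 0 bp. As width differs, the shares of domains and of all control regions are again not compared.

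Brg1-bound regions, listed in at least 2 of 3 FLAG replicates, were found in 6 domains, or 1.17%, against 0.603% of all control regions. The domains were at *Gbx2*, *Gad1* and *Hoxb3*, in *Lmx1b*, and near *Foxa2* and *Irx3*. All 6 rested on FLAG replicates 1 and 2, and without either of them the count was 0. In single replicates, FLAG regions met 60, 34 and 0 domains. Wider regions have more room for a FLAG region, so the shares of regions are not compared. As a share of bases, FLAG replicates 1 and 2 covered 0.185% and 0.109% of the domains, and 0.205% and 0.245% of the narrower regions. In the *Lmx1b* domain, at chr2:33432151-33440675, FLAG covered 125 and 850 bp in replicates 1 and 2, and H3K27me3 lay over 3375, 8050 and 7275 bp in control and 1425, 3650 and 3050 bp in 4-OHT replicates. In the *Irx3* domain, at chr8:94326626-94333750, FLAG covered 125 and 325 bp, and H3K27me3 lay over 4575, 7025 and 6975 bp in control and 3500, 6925 and 6825 bp in 4-OHT replicates. The ratios of the 6 domains ran from 0.434 in *Lmx1b* to 0.929 near *Irx3*.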

How the data were processed

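ChIP-seq of H3K27me3, Suz12, H3K27ac and FLAG was analysed from 17 region lists. The authors deposited chromosome, start and end of enriched regions, called per replicate at thresholds of 1e-06 for FLAG and 1e-12 for the other marks; the lists hold no count, signal or score. The submitters' processing notes name Bowtie and mm9, without a version. Inputs were not used otherwise. Groups and replicate numbers came from the sample labels. The labels call replicates biological.

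Lists were merged and covered bases counted with Python 3.11.15, NumPy and SciPy (2.4.6 and 1.17.1), checked on simulated data. Genes were protein-coding in GENCODE vM1 on NCBIM37, the same build as mm9, entries sharing a symbol and chromosome counted once, and a gene was inside when a TSS was. 1 of 14 neural markers was not matched by symbol. Totals were compared by two-sided exact permutation over samples. Regions are not replicates and were not tested. Intervals are exact binomial.

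Named were the 10 widest domains, the 3 nearest on each side of 5000 bp, the 5 lowest and 5 highest ratios, domains missing from a 4-OHT list, without Suz12, with Brg1 or with H3K27ac (all up to 10, otherwise the 5 widest), the *Hox* clusters, *Irx1*, *Nkx2-5*, and genes of 25 families and 6 marker lists. Some of these are not reported here. The members and lists were chosen with earlier results of these data known.

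Same-numbered H3K27me3 replicates of the 2 conditions deviated together from their condition means over merged regions, with correlations of 0.932, 0.875 and 0.796, so the numbers were taken as pairs, as judged from the lists. Replicates 2 and 3 also correlated across numbers (0.692 and 0.760). For Suz12 and H3K27ac, with 2 pairs each, they were 0.444 and 0.418, and those numbers were not taken as pairs. Alternatives were other widths, merging distances, overlaps, list lengths and left-out replicates.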

Additional observations from a re-analysis of the deposited data

How the results depend on the processing

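Of 129 alternative values for 10 results, 3 reversed, 32 moved, and 94 did neither: tested values kept their direction, counts stayed within 1.5 times, and shares and the untested ratio within counting error or 1 SD. The H3K27ac ratio ran from 1.20 to 1.87. The smallest p these designs allow is 0.1, so no setting could pass 0.05, and that none did shows no stability. The ratio of H3K27me3 length in wide domains ran from 0.754 to 1.02 with single replicates left out, and that in domains from all 6 lists from 0.756 to 1.03. The Suz12 difference ran from -7.60 to 1.04 percentage points. All 3 reversed without 4-OHT replicate 1 of the mark; the cause was not tested.

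With widths of at least 3000 bp, at least 10000 bp, and merging up to 1000 bp, there were 1068, 148 and 916 domains, of which 88.6%, 100% and 83.3% overlapped Suz12, 56.4%, 74.3% and 76.2% held a TSS, and 114, 7 and 188 were lower in all 4-OHT replicates. Merging gave 6.33% with H3K27ac. Lists of equal length gave 92.8% with Suz12 and 1.76% with H3K27ac, a region in either replicate 98.4% and 7.63%. An overlap of 500 bp gave 1.37% with H3K27ac and 0% with Brg1, and FLAG in any replicate 15.7%. The stretch covered in 2 of 3 control replicates gave 55.8% with a TSS and 7 lower domains, and a TSS within 2500 bp 81.4%.

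With single replicates left out, shares ran from 96.9% to 98.0% for Suz12, 2.87% to 5.87% for H3K27ac, 0% to 1.32% for Brg1 and 56.7% to 61.5% for a TSS, and lower domains from 34 to 337. Leaving out both H3K27me3 libraries numbered 1, chosen after seeing the data, gave 337 lower domains of 455.

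With the replicate block, the ratio in wide domains was 0.841, that in domains from all 6 lists 0.843 (exact p = 0.25), the Suz12 difference -3.28 points (exact p = 0.5) and the H3K27ac ratio 1.42 (exact p = 0.5). The block changed no call, and with smallest p of 0.25 and 0.5 it could not have. Depth is unknown, so what it limits could not be measured.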
